A study of Mus musculus with 12 samples.

Results

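The Zfp genes examined here were the protein-coding mouse genes whose symbol is Zfp followed by a number. They came to 397 of the 21887 protein-coding genes of the mm10 (GRCm38.p6) RefSeq table on the assembled nuclear chromosomes. The rule uses the name alone, so no measured value decided which genes belong. The group itself was chosen with earlier results of these data known. Most proteins with this name carry arrays of classical zinc fingers, small folds that hold a zinc ion and read DNA. In many of them a KRAB domain calls in the corepressor Trim28, which silences transposable elements and imprinted loci, and these genes lie in clusters that grew by local duplication. Others are widely expressed regulators, and a few bind RNA or ubiquitin instead. BRD2 and BRD3 are bromodomain proteins that dock on acetylated histones at active promoters and enhancers, and I-BET blocks their acetyl-lysine pocket.

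BRD2 and BRD3 were mapped by chromatin immunoprecipitation and sequencing in RAW264.7, a mouse macrophage line that can be driven towards osteoclasts. The cells were untreated, or were given for 4 h the osteoclast cytokine RANKL at 50 ng/ml, I-BET at 500 nM, or RANKL and I-BET together at the same doses. Each of the 8 antibody and treatment combinations was 1 library of cells fixed in 1% formaldehyde for 15 min and read as 50 bp single reads, and each was deposited as 1 list of enriched regions. There were no replicate libraries, so no difference between treatments could be set against a spread between samples, and the intervals given below are exact binomial (Clopper-Pearson) 95% intervals that cover counting error only. The cell line was checked on 8 macrophage genes: Spi1, the master regulator of the lineage, had a region in 7 of the 8 lists, Csf1r, the receptor for the macrophage growth factor, in 4, and Itgam and Adgre1 in none. Region lists carry no expression level, so absence from a list does not show that a gene is silent.

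A gene was counted as bound in a list where at least 1 bp of a region lay within 1 kb of either end of the gene record. BRD3 was found at more Zfp genes than BRD2 under every treatment. In untreated cells 66 of the 397 Zfp genes had a BRD3 region (16.6%, interval 13.1% to 20.7%), beside 14.0% of all genes, and 9 had a BRD2 region (2.27%, interval 1.04% to 4.26%), beside 2.26% of all genes. With RANKL the BRD3 count was again 66 (16.6%, all genes 13.7%) and the BRD2 count was 28 (7.05%, interval 4.74% to 10.03%, all genes 6.21%). With I-BET 43 Zfp genes had BRD3 (10.8%, interval 7.95% to 14.3%, all genes 9.73%) and 15 had BRD2 (3.78%, interval 2.13% to 6.16%, all genes 3.79%). With both agents 53 had BRD3 (13.4%, interval 10.2% to 17.1%, all genes 11.9%) and 3 had BRD2 (0.756%, interval 0.156% to 2.19%, all genes 0.978%). In all 8 lists the share of all genes lay inside the interval for the Zfp genes.

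The counts moved with the length of the lists, which held 578, 1716, 1067 and 245 BRD2 regions and 3668, 3840, 2232 and 2842 BRD3 regions for untreated, RANKL, I-BET and both agents. When the lists of an antibody were each cut to the length of its shortest by the deposited score, the Zfp genes with BRD3 numbered 45, 39, 43 and 40 in the same order, and those with BRD2 4, 4, 2 and 3. At equal list length the treatments thus spanned 39 to 45 genes for BRD3 and 2 to 4 for BRD2.

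**Figure D1:**
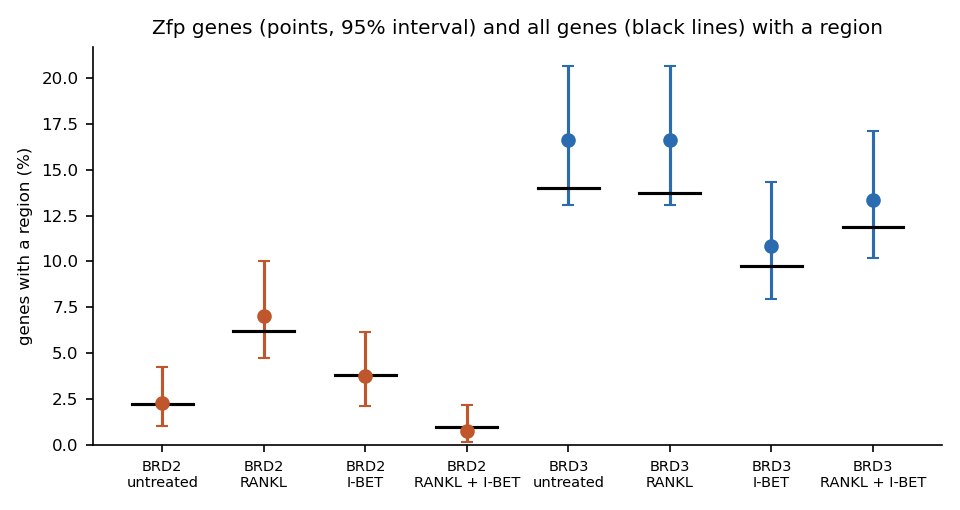
Share of genes with a region within 1 kb of a gene end (vertical axis, percent) in each of the 8 lists (horizontal axis), for the 397 Zfp genes (points with 95% Clopper-Pearson intervals, BRD2 in orange and BRD3 in blue) and for all 21887 genes (black lines). Each black line crosses the interval of the Zfp genes, from 0.978% against 0.756% for BRD2 with both agents to 14.0% against 16.6% for BRD3 in untreated cells.

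Over all lists 105 Zfp genes (26.4%, interval 22.2% to 31.1%) had a region of either protein, beside 21.2% of all genes, and 292 had none. BRD3 was present in some list at 80 (all genes 17.4%) and BRD2 at 42 (all genes 8.84%). Joining regions that overlap between lists gave 104 separate sites, 61 with BRD3 only, 26 with BRD2 only and 17 with both. Sites and genes were therefore nearly equal in number, even though many of these genes are neighbours. A single region served more than 1 Zfp gene at 2 places on chromosome 7. One lay within 1 kb of an end of both Zfp580 and Zfp784, was called for BRD3 in all 4 lists (chr7:5038195-5038723 in untreated cells) and covered the listed start of Zfp784. The other lay within 1 kb of an end of both Zfp646 and Zfp668 (chr7:127875611-127877422 in untreated cells), covered the listed start of Zfp668 and was called for BRD3 in every list but that with both agents. Zfp512b, a partner of the NuRD corepressor, was alone in having 2 sites: its BRD2 region of untreated cells was at its far end, shared with Uckl1, and its BRD2 region with RANKL covered its start.

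Most regions covered a listed transcription start. The RefSeq promoter table lists transcription starts for 331 of the 397 genes. Of the 53 pairs of Zfp gene and BRD3 region in untreated cells that have a listed start, 47 covered that start. The corresponding counts were 49 of 55 with RANKL, 32 of 37 with I-BET and 39 of 46 with both agents. For BRD2 they were 6 of 8, 24 of 25, 12 of 13 and 1 of 3. The rule counts only the ends of the gene record. It left out 11 Zfp genes that had a region within 1 kb of a listed start inside the record, among them Zfp217, Zfp445, Zfp638 and Zfp787.

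**Figure D2:**
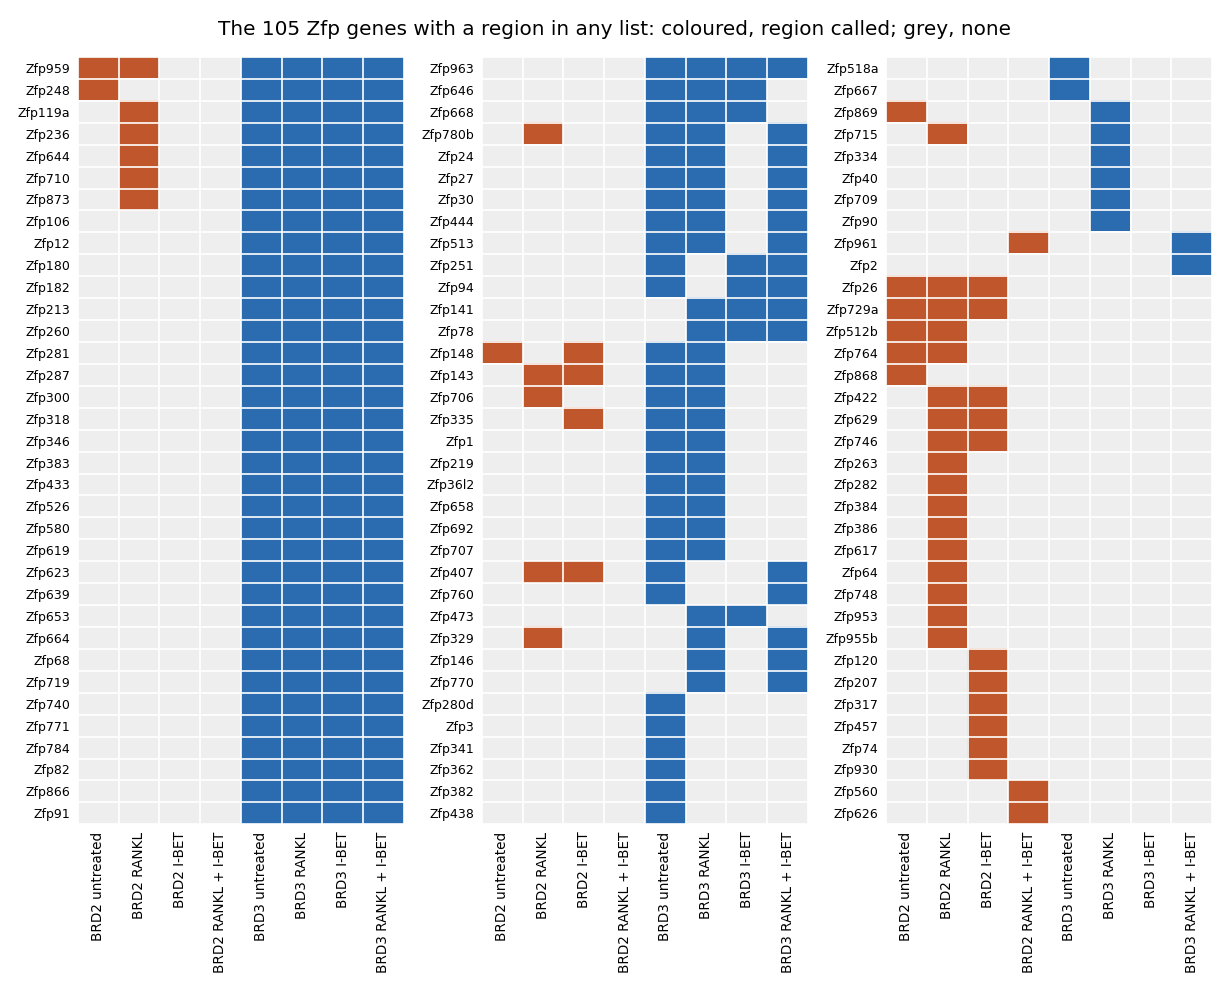
The 105 Zfp genes with a region in any list (vertical axes, gene symbols in 3 panels) against the 8 lists (horizontal axes); orange marks a BRD2 region, blue a BRD3 region and grey none. The left panel begins with genes in all 4 BRD3 lists, and the lower part of the right panel holds the 25 genes that had BRD2 and no BRD3.

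Among 8 motifs searched in the promoters, the core of the NRF1 site was the one that went with BRD3 at Zfp genes. NRF1 is a widely expressed activator of nuclear genes for mitochondria and of housekeeping promoters, and its site is a CpG-containing near-palindrome. The letters GCATGCG were searched on both strands of the 300 bases from 250 before to 50 after the listed start nearest the 5′ end of the gene record. They were held by 4.50% of all 17492 promoters and by 22 of the 331 Zfp promoters (6.65%). The bases before the start of the 5 Zfp genes that were in all 4 BRD3 lists and had the letters wholly within 60 bases upstream of the start are shown here because they carry this pattern. Each runs 5′ to 3′ on the strand of the gene and ends at the base before the start. A match is a description of the letters and not a site. Capitals mark the NRF1 letters and the sequences are from RefSeq GRCm38.p6. They lie at chr5:143235083-143235162 (plus strand) for Zfp12, chr17:23564227-23564306 (minus strand) for Zfp213, chrX:21089230-21089309 (minus strand) for Zfp300, chr3:32510512-32510591 (plus strand) for Zfp639 and chr7:43579506-43579585 (plus strand) for Zfp719.
Zfp12: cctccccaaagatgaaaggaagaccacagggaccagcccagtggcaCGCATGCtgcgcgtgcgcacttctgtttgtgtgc
Zfp213: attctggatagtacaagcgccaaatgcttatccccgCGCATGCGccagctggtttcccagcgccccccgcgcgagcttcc
Zfp300: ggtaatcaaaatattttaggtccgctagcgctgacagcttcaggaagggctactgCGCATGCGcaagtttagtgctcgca
Zfp639: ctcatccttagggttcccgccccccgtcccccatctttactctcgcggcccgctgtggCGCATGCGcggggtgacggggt
Zfp719: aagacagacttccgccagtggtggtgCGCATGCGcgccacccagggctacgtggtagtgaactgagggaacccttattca

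In 4 of these 5 promoters the letters overlap their own reverse complement, so that both strands match. The BRD3 region of Zfp719 spanned 496, 628, 622 and 662 bp for untreated, RANKL, I-BET and both agents. That of Zfp300 spanned 380, 475, 491 and 424 bp in the same order, and that of Zfp213 574, 707, 634 and 589 bp. The regions of Zfp12, at 680, 823, 854 and 762 bp, and of Zfp639, at 943, 728, 949 and 827 bp, were wider than the medians of the BRD3 regions at all Zfp genes, which were 669.5, 620.5, 634 and 579 bp. Presence of these 5 genes in the I-BET lists follows from how they were chosen.

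Of the 22 Zfp genes with the letters, 15 had BRD3 in some list (68.2%, interval 45.1% to 86.1%), against 50 of the 309 without them (16.2%, interval 12.3% to 20.8%). The same held for all genes, at 65.2% with the letters and 15.6% without, so the pattern was shared with the rest of the genome. For BRD2 no such difference was seen among the Zfp genes, where 2 of 22 with the letters had it (9.09%, interval 1.12% to 29.2%) and 35 of 309 without them (11.3%, interval 8.02% to 15.4%). Over all genes the BRD2 shares were 18.3% and 8.67%. Among the 24 Zfp promoters with BRD2 and no BRD3 list, none held the letters, and a count of 0 of 24 allows a share of up to 12.5%. In all genes the share in that class was 2.18%.

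The other motifs, searched on both strands of the same bases, were CGGAAGT for ETS factors (in 8.58% of all promoters), CCAAT for NFY (39.2%), CACGTG, the E-box (7.91%), TATAAA, the TATA box (13.3%), TGANTCA for AP-1 (7.03%), ATGGCGG for YY1 (5.44%) and GGGCGG for SP and KLF factors (46.3%). For these 7 the share of Zfp genes with BRD3 ran from 4.17% (1 of 24 with the E-box) to 25.8% (8 of 31 with the YY1 letters), and in each case its interval overlapped that of the Zfp genes without the letters. The letters CCAAT, for one, were in 49.2% of Zfp promoters with BRD3 and in 50.0% of those in no list. The SP and KLF letters were in 44.6% of Zfp promoters with BRD3 and in 68.2% of all promoters with BRD3.

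The letters lay close to the middle of the BRD3 regions. The 48 pairs of a gene with the letters and a BRD3 list it was in came from 15 genes, each counted in every list that called it, so the pairs are not independent. Across them the nearest match was a median of 22.8 bp from the middle of the region and at most 164.5 bp. In 34 pairs it was within 50 bp. In the same pairs the listed start was a median of 51 bp from the middle. Every match of a bound gene lay inside the region in each list that called it. Matches were sought only from 250 bases before to 50 after the start, which was itself near the middle. Their place inside the region and near its middle was thus in part set by the search. The distances of other motifs were not measured. The regions in these pairs had a median width of 581.5 bp. At Zfp30, a KRAB gene, the letters were 0.5, 2.5 and 56.5 bp from the middle of its untreated, RANKL and both-agent regions and the start 3.5, 0.5 and 53.5 bp, so neither was the nearer in every list.

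Because the NRF1 letters hold CpG, promoters were also compared within ranges of CpG number. For Zfp promoters with 10 to 19 CpG, 10 of 14 with the letters had BRD3 (71.4%, interval 41.9% to 91.6%) and 22 of 109 without them (20.2%, interval 13.1% to 28.9%). For all genes in that range the shares were 57.8% and 17.7%. The other ranges held at most 5 Zfp promoters with the letters. In all genes the share was higher with the letters in every range, by least in that of 0 to 9 CpG (7.94% of 63 against 3.60%, with overlapping intervals). These comparisons were chosen after the values had been seen.

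**Figure D3:**
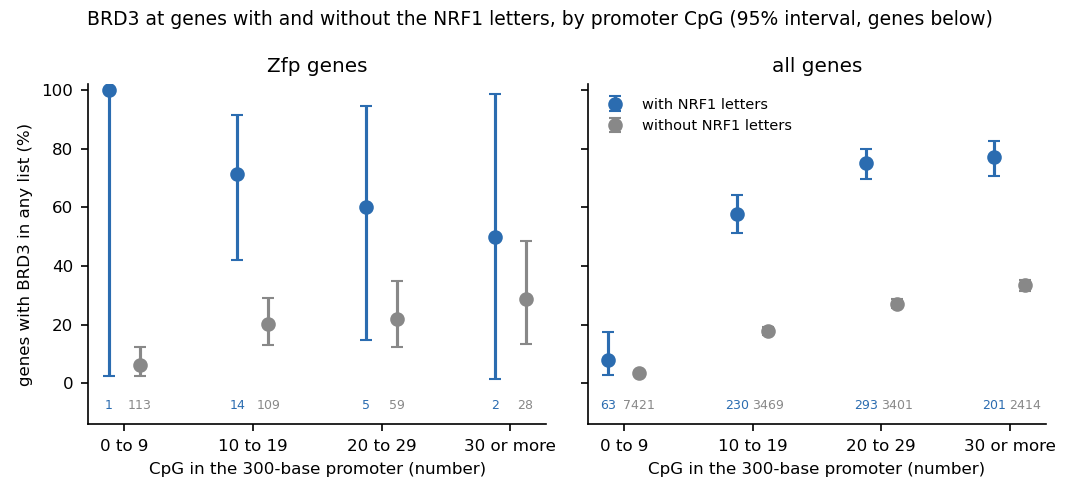
Share of genes with BRD3 in any list (vertical axis, percent, with 95% Clopper-Pearson intervals) by the number of CpG in the 300-base promoter (horizontal axis), for genes with (blue) and without (grey) the NRF1 letters, in Zfp genes (left) and all genes (right); the figures under the points are numbers of genes. Among Zfp promoters of 10 to 19 CpG the share was 71.4% with the letters and 20.2% without.

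With I-BET, 9 of the 11 Zfp genes that had the letters and BRD3 in untreated cells were still in the list (81.8%, interval 48.2% to 97.7%), and 25 of the 42 without the letters (59.5%, interval 43.3% to 74.4%). These intervals overlap. In all genes the shares were 82.2% of 438 and 57.7% of 2074, with intervals of 78.3% to 85.7% and 55.6% to 59.9%. Between RANKL and both agents 12 of 15 Zfp genes with the letters were kept (interval 51.9% to 95.7%) and 30 of 40 without them (interval 58.8% to 87.3%), against 89.1% and 74.8% in all genes.

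BRD3 was called at largely the same set of Zfp genes with and without RANKL. Of the 66 bound in untreated cells 54 were bound with RANKL (81.8%, interval 70.4% to 90.2%), all with overlapping regions, beside 78.4% for all genes. Both lists were called at 11.0% of all genes. The 12 called only without RANKL (all genes 3.02%) included Zfp341, Zfp407 and Zfp518a, and the 12 called only with RANKL (all genes 2.75%) included Zfp40, Zfp90 and Zfp770. From untreated cells to I-BET, 40 of 66 were kept (60.6%, interval 47.8% to 72.4%, all genes 60.9%), and 8.53% of all genes were in both lists. The 26 not called with I-BET compare with 5.47% of all genes, and 3 were called only with I-BET (Zfp78, Zfp141 and Zfp473, all genes 1.20%). From RANKL to both agents 47 of 66 were kept (71.2%, interval 58.7% to 81.7%, all genes 76.5%), where 10.5% of all genes were in both lists. The 19 called with RANKL alone (all genes 3.23%) included Zfp646 and Zfp668, and the 6 called with both agents and not with RANKL (all genes 1.37%) included Zfp251 and Zfp760. From I-BET to both agents 40 of 43 were kept (93.0%, interval 80.9% to 98.5%, all genes 93.9%), with 9.14% of all genes in both lists, and 13 were in the list with both agents alone (all genes 2.73%). The Zfp share lay within counting error of the share for all genes in each of these comparisons.

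In all 4 BRD3 lists there were 36 Zfp genes, 45.0% of the 80 with BRD3 (interval 33.8% to 56.5%), beside 44.1% of all genes with BRD3. Over all genes tested 7.65% were so called. Their regions had median widths of 595, 680, 635.5 and 632 bp for untreated, RANKL, I-BET and both agents. Zfp710 stood apart. Its BRD3 region, which covered its start and reached into the gene (chr7:80024268-80029315 in untreated cells), spanned 5048 bp without treatment and 3264 bp after RANKL, against 1435 bp under I-BET and 834 bp under both agents, and its BRD2 region with RANKL spanned 4164 bp. The I-BET region of Zfp710 lay inside the gene and no longer covered the start. Zfp91, a ubiquitin ligase of non-canonical NF-kappaB signalling, had wider BRD3 regions without I-BET, 2330 bp in untreated cells and 1806 bp with RANKL, than with it, 951 bp with I-BET and 1024 bp with both agents, and its region also lay at the end of Lpxn. The region at Zfp526, shared with Dedd2, spanned 1974, 1946, 1939 and 1992 bp for untreated, RANKL, I-BET and both agents. The widths of 16 of the 36 were narrower with I-BET than in untreated cells, and 22 were narrower with both agents than with RANKL (all genes 50.5% and 65.5%).

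**Figure D4:**
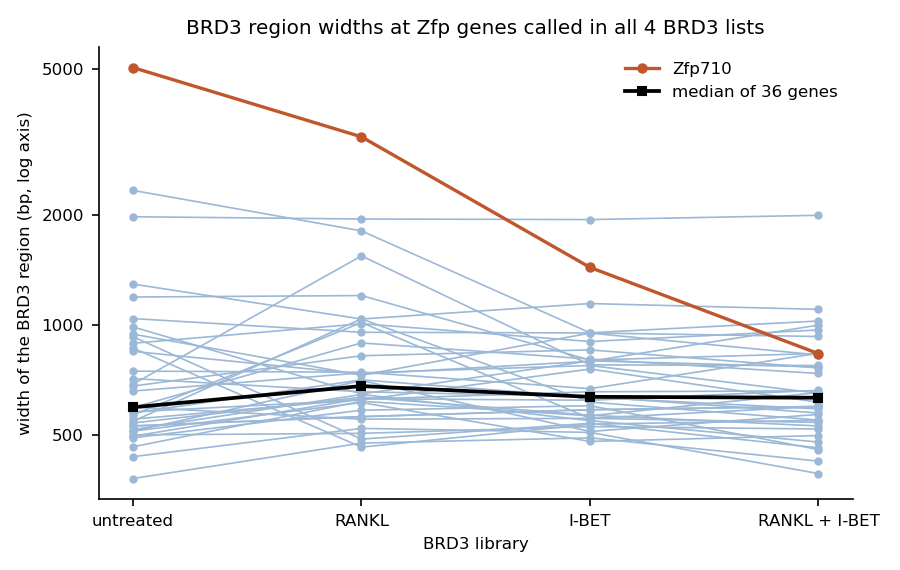
Width of the BRD3 region (vertical axis, bp, log axis) in the 4 BRD3 libraries (horizontal axis) for the 36 Zfp genes called in all 4 lists; each pale line is 1 gene, the orange line Zfp710 and the black line the median. Zfp710 goes from 5048 bp in untreated cells to 834 bp with both agents, while the median stays between 595 and 680 bp.

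The Zfp genes were also counted by role, in lists of 4 to 14 genes that carry no test. Of 13 broadly acting regulators, 7 had BRD3 in untreated cells (all genes 14.0%), 6 after RANKL (13.7%), 2 under I-BET (9.73%) and 2 under both agents (11.9%). The I-BET list was also the shorter one, with 2232 regions against 3668 in untreated cells. The 2 kept were Zfp281, a regulator in the pluripotency network, and Zfp740. Zfp143, which activates small nuclear RNA and housekeeping promoters, had a BRD3 region of 1280 bp in untreated cells and 1134 bp with RANKL and none in either I-BET list. Zfp148 (559 and 436 bp), Zfp335 (1412 and 983 bp) and Zfp219 (786 and 1158 bp) followed the same pattern, although the region of Zfp219 also lay at Tmem253 and in untreated cells missed the listed start. They belong to 10 Zfp genes that were called in both BRD3 lists without I-BET and in neither with it. The 10 were 12.5% of the 80 Zfp genes with BRD3 (interval 6.16% to 21.8%). Among all genes with BRD3, 304 of 3799 had this pattern, a share that lies inside that interval. Those 304 were 1.39% of all genes tested, bound or not.

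The tristetraprolin family binds AU-rich elements and speeds decay of inflammatory messages. Of its 4 members Zfp36l2 alone met the rule, for BRD3 (all genes with BRD3 in some list 17.4%). Its regions spanned 2771 bp in untreated cells (chr17:84180765-84183535) and 2121 bp with RANKL, and there was none with I-BET. Zfp36 and Zfp36l1, which are regulated in activated macrophages, had no region in any list. Of 14 genes of lineage and development, Zfp318, a regulator of immunoglobulin transcripts in B cells, alone met the rule (all genes in some list 21.2%). It was in all 4 BRD3 lists, at 688, 1543, 777 and 774 bp for untreated, RANKL, I-BET and both agents. Zfp521 and Zfp423, which steer mesenchymal and blood lineages, were in no list. Zfp516 (all 4 BRD3 lists) and Zfp608 (all but that with both agents) had BRD3 regions inside the gene and away from its ends, which the rule leaves out. Of 12 KRAB genes known for silencing imprints and repeats, 10 were in no list by the gene-end rule, including Zfp57 and Zfp809. The share in no list was 78.8% of all genes and 73.6% of the Zfp genes. The 10 include Zfp445, which had a BRD2 region with I-BET within 1 kb of a listed start inside its record. Of 14 genes of ubiquitin, ribosome and RNA functions 9 were in no list (all genes 78.8%), and Zfp91, Zfp106 and Zfp346 were in all 4 BRD3 lists (all genes 7.65%). The 9 include Zfp638, which had regions of both proteins within 1 kb of a listed start inside its record.

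The partners of KRAB proteins are a separate list. Of 25 genes of the Trim28 corepressor machinery, 9 had BRD3 without treatment (all genes 14.0%), 11 after RANKL (13.7%), 6 under I-BET (9.73%) and 6 under both agents (11.9%). Trim28 itself, the heterochromatin proteins Cbx1 and Cbx5, Morc3 and the histone methyltransferase Suv39h2 were in all 4 BRD3 lists, whereas Setdb1, the methyltransferase that Trim28 recruits, was in none of the 8. Of 41 Zbtb genes, zinc finger genes with a BTB domain, 15, 12, 9 and 10 had BRD3 in the same order, beside the same shares of all genes. Of 11 Zkscan genes none had BRD3, which allows a share of up to 27.3% from a count of 0 of 11, above the 17.4% of all genes with BRD3 in some list.

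Of the 105 bound Zfp genes, 17 had both BRD2 and BRD3. Of the 42 with BRD2 in some list 17 also had BRD3 in some list (40.5%, interval 25.6% to 56.7%), against 56.9% of all genes with BRD2, and 5.03% of all genes had both proteins. The remaining 25 had BRD2 and no BRD3 list (all genes 3.81%). Within a treatment, 3 of the 9 with BRD2 in untreated cells had BRD3 there (all genes with BRD2 51.4%), and 11 of the 28 with RANKL (39.3%, all genes with BRD2 43.8%). In these lists both proteins were called at 1.16% and 2.72% of all genes. With I-BET none of the 15 Zfp genes with BRD2 had BRD3, while 26.5% of all genes with BRD2 did (interval 23.5% to 29.6%) and 1.01% of all genes had both. A count of 0 of 15 allows a share of up to 20%. With regions up to 2 kb away counted, 1 of 19 had both, Zfp580. With both agents 1 of 3 with BRD2 had BRD3 (all genes with BRD2 31.3%), and both proteins were called at 0.306% of all genes.

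Genes whose BRD3 was called without I-BET and whose BRD2 was called with it are given next. Zfp143, Zfp148, Zfp335 and Zfp407 each had BRD3 in untreated cells and lacked it with I-BET, and each had BRD2 with I-BET. As none of the 15 Zfp genes with BRD2 under I-BET had BRD3 there, the lack of BRD3 follows from that count. The share of all genes with this combination is not given here, so it is not shown to be a trait of the Zfp genes. Zfp407 had BRD3 again with both agents (1127 bp), with a score above 91.7% of those in that list. At Zfp335, which links to histone methyltransferase complexes, the BRD2 region spanned 1026 bp with I-BET and there was no BRD2 region in the other 3 lists. At Zfp148 BRD2 spanned 653 bp in untreated cells and 948 bp with I-BET, and at Zfp143 1355 bp with RANKL and 1335 bp with I-BET. Zfp407 likewise had BRD2 with RANKL (661 bp) and with I-BET (435 bp). In the I-BET list the BRD2 score was low for 3 of these 4 genes, above 1.87% of scores in that list for Zfp148, 6.56% for Zfp407 and 12.2% for Zfp143, and it was above 72.1% for Zfp335. Zfp961 was unlike these, with BRD2 (605 bp) and BRD3 (426 bp) in the 2 lists with both agents and in no other.

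BRD2 was also found at Zfp genes without BRD3. Zfp26 and Zfp729a had BRD2 in the same 3 lists, all but the one with both agents, and no BRD3 in any. Of the 9 genes with BRD2 in untreated cells, 5 had it with RANKL (all genes with BRD2 in untreated cells 54.0%, in both lists 1.22% of all genes). With I-BET 3 of the 9 had it (all genes with BRD2 in untreated cells 47.2%, in both lists 1.06% of all genes). The BRD2 region at Zfp26 spanned 966, 787 and 710 bp and that at Zfp729a 601, 937 and 891 bp. No Zfp gene was in all 4 BRD2 lists (all genes 0.224%), and 0 of 42 allows a share of up to 7.14% of those with BRD2. From RANKL to both agents none of 28 BRD2 genes was kept, which allows up to 10.7%, beside 9.63% for all genes with BRD2 under RANKL (in both lists 0.599% of all genes), so a difference between the family and other genes was not detectable at this number. From I-BET to both agents none of 15 was kept, which allows up to 20% (all genes with BRD2 under I-BET 15.4%, in both lists 0.585% of all genes). With RANKL 23 were called that untreated cells lacked (all genes 4.99%), among them Zfp710, Zfp384 and Zfp263, and 4 untreated genes were not called with RANKL (all genes 1.04%). With I-BET 12 were called that untreated cells lacked (all genes 2.73%), among them Zfp207, a spindle and splicing factor.

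Zfp promoters with BRD2 and no BRD3 held fewer CpG than those with BRD3. The median was 13.5 CpG in 300 bases for these 24 Zfp promoters, 18 for the 65 with BRD3 and 11 for the 242 in no list, and it was 21, 24 and 9 in the same classes of all genes. Among Zfp promoters of at most 9 CpG, 14 of 114 had BRD2 (12.3%, interval 6.88% to 19.7%), beside 2.53% of all genes with such promoters. BRD3 in that range was at 8 of 114 (7.02%, interval 3.08% to 13.4%), beside 3.63%. In the ranges of 10 to 19, 20 to 29 and 30 or more CpG, the Zfp shares with BRD2 were 9.76%, 10.9% and 13.3%. Those of all genes were 10.4%, 15.7% and 16.7%, inside the Zfp intervals, so the higher BRD2 share was confined to the lowest range. Neighbouring genes of a cluster were counted separately there and are not independent. The letters CGGAAGT, a core site of ETS factors, were in 18.7% of Zfp promoters and 8.58% of all promoters, and in 8 of the 24 with BRD2 and no BRD3. Of the 62 Zfp genes with these letters 12 had BRD2 (19.4%, interval 10.4% to 31.4%), and of the 269 without them 25 (9.29%, interval 6.10% to 13.4%). These intervals overlap, and over all genes the BRD2 shares were 22.5% with the letters and 7.84% without.

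The 2 clusters with the most genes, on chromosomes 13 and 7, are described because one held BRD2 and the other mostly BRD3. Genes with another Zfp gene within 100 kb were chained into clusters, and 132 Zfp genes lay in 15 clusters of 5 or more. There 15 had BRD2 (11.4%) and 22 BRD3 (16.7%), beside 19 (11.1%) and 36 (21.1%) of the 171 with no Zfp neighbour, with overlapping intervals. The largest cluster, 23 genes over 788 kb of chromosome 13, had BRD2 at 4 genes (all genes in some list 8.84%) and BRD3 at none (17.4%), where a count of 0 of 23 allows a share of up to 13.04%. As it was picked for holding BRD2 and not BRD3, these counts describe it and support nothing. Zfp729a was in 3 BRD2 lists there, Zfp953 (595 bp) and Zfp748 (435 bp) were in the RANKL list, and Zfp457 (633 bp) was in the I-BET list. A cluster of 15 genes over 401 kb of chromosome 7 had BRD3 at 7 genes (all genes in some list 17.4%) and BRD2 at 1, Zfp74 (8.84%). There Zfp82, Zfp260 and Zfp383 were in all 4 BRD3 lists (all genes 7.65%). The chromosome 7 cluster was likewise described for what it held, so its counts support nothing either.

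**Figure D5:**
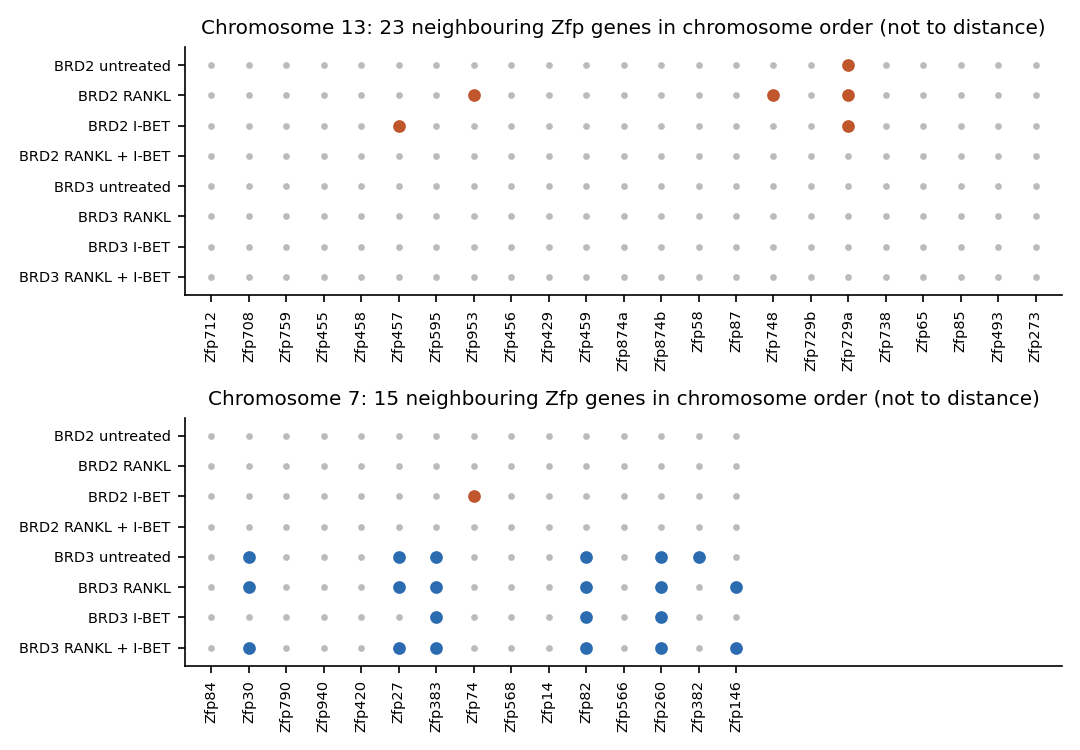
The 8 lists (vertical axes) against neighbouring Zfp genes in chromosome order (horizontal axes, not to distance) for the 23-gene cluster of chromosome 13 (top) and the 15-gene cluster of chromosome 7 (bottom); large orange dots are BRD2 regions, large blue dots BRD3 regions and small grey dots none. The upper cluster holds 4 genes with BRD2 and none with BRD3, the lower 7 with BRD3 and 1 with BRD2.

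The 4 BRD2 genes of the chromosome 13 cluster are shown for the stretch they share. Each sequence is the 120 bases before the start, 5′ to 3′ on the strand of the gene, from RefSeq GRCm38.p6, and capitals mark TTGTGGGAANTGTAGTC, the longest stretch found in all 4 with at most 1 varying base. They lie at chr13:67306413-67306532 (minus strand), chr13:67360573-67360692 (minus strand), chr13:67553153-67553272 (minus strand) and chr13:67637782-67637901 (minus strand) in the order printed.
Zfp457: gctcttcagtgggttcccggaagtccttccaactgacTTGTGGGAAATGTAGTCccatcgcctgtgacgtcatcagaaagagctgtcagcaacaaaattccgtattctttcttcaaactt
Zfp953: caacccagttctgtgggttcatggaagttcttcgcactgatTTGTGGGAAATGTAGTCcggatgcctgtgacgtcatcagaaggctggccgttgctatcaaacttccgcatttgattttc
Zfp748: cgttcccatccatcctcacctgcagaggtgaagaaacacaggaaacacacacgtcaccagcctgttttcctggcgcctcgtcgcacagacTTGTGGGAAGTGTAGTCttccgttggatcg
Zfp729a: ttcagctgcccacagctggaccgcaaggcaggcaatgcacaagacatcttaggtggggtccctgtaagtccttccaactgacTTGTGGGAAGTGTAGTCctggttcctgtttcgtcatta

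Of Zfp promoters with an entry, 15 of 331 held this stretch of 17 bases on either strand (4.53%), as did 4 of the 17161 promoters of other genes (0.0233%). Together 0.109% of all promoters of that length held it. In the cluster it was in 12 of the 20 promoters with an entry, and it lay inside the BRD2 region in all 6 pairs of these 4 genes and a list. The 11 other Zfp carriers had no BRD2 region. Over all genes 5 of the 19 carriers had BRD2, and those 5 include the 4 genes from which the stretch was derived. The other 8 carriers in the cluster, among them Zfp58, Zfp595 and Zfp738, had no region of either protein, and the remaining 3 carriers were Zfp72, in no list, and Zfp2 and Zfp146, which had BRD3. The stretch was derived from the BRD2 genes themselves, so its presence in them is no finding. Genes of such clusters are near copies of each other in places, and how reads that align to more than 1 place were counted was not stated in the labels or files used.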

How the data were processed

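BRD2 and BRD3 occupancy was taken from 8 lists of regions, 1 library per antibody and treatment, so there were no replicates, no tests and no p-values. The 4 input libraries carry no list and were not used here. The authors deposited 1 score per region. Its meaning was not stated in the labels or files used, and it was used only to rank regions within a list. Between 98.4% and 99.96% of the regions of a list join 3 peaks, per their names as deposited. Bowtie2 2.3.4.1, FastQC, MACS2 2.1.1.20160309 and mm10 appear in the submitters' processing notes with no roles given. Read depth is unknown, as the lists hold no read counts, and list length moved with treatment.

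Genes came from RefSeq GRCm38.p6. Of the 397 Zfp genes 331 have a promoter entry, which was used for starts, CpG and motifs, and the other 66 enter no promoter count. Protein features (zinc finger number and KRAB domain) were not used here. A gene counted as bound where 1 bp or more of a region came within 1 kb of a gene end. Intervals are exact Clopper-Pearson 95% intervals and, like the limit of 3 counts for a count of 0, cover counting error only. Genes that share a region or a cluster are not independent. Scripts used Python 3.11.15, pandas 2.3.3, NumPy 2.4.6 and SciPy 1.17.1. The assignment was tested on simulated data of 400 genes and 300 regions under 4 settings, with 0 genes called wrongly.

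Genes were named by a rule: genes with BRD2, up to 30, by number of lists; genes in all 4 BRD3 lists, up to 30, by width; up to 15 on each side of a comparison, by score; genes sharing a region; role groups; and the 10 widest regions. Genes named for promoter letters or for their cluster were chosen after their values were seen. The Zfp genes, role groups, motifs and comparisons were chosen with earlier results of these data known. The alternatives tried were windows of 500 bp and 2 kb, the region midpoint, listed starts only, the upper 50% of regions by score, lists of equal length, regions within 1 kb joined, and leaving out the 4 tristetraprolin genes. An added alternative, chosen after seeing the data, placed regions over the 300-base promoter itself.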

Additional observations from a re-analysis of the deposited data

Results flagged for a closer look

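The number of Zfp genes with BRD2 moved in opposite directions with RANKL according to the presence of I-BET. It went from 9 in untreated cells to 28 with RANKL, and from 15 with I-BET to 3 with both agents. All genes moved alike, from 2.26% to 6.21% and from 3.79% to 0.978%, so the pattern is not one of the Zfp genes alone. At equal list length the counts were 4 and 4, and 2 and 3, and the BRD2 lists held 578, 1716, 1067 and 245 regions in the order untreated, RANKL, I-BET and both agents. The difference between these effects was not tested, as each count comes from 1 library.

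I-BET alone went with more Zfp genes for BRD2 and fewer for BRD3, in the comparison of I-BET with untreated cells. The BRD2 count went from 9 to 15 and the BRD3 count from 66 to 43. The shares of all genes also went from 2.26% to 3.79% for BRD2 and from 14.0% to 9.73% for BRD3. At equal list length they went from 4 to 2 and from 45 to 43, so the opposite directions were absent there. The difference was not tested.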

How the results depend on the processing

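Of 206 values recomputed under alternatives, 174 moved by less than their counting interval or 1.5 times and 32 moved further. Whether a difference between lists changed direction was not scored. The BRD2 count from untreated to I-BET did so, from 9 to 15 in the main count and from 4 to 2 at equal list length. All 32 came from the upper 50% of regions by score or from lists cut to equal length, both of which hold fewer regions by construction. In the upper 50% of regions the Zfp genes with BRD2 numbered 4, 11 and 6 (untreated, RANKL, I-BET), in 4, 11 and 6 distinct regions, and those with BRD3 numbered 40, 34, 23 and 25 (untreated, RANKL, I-BET, both agents), in 38, 32, 22 and 24 regions. There the share of untreated BRD2 genes kept with RANKL was 0%. The BRD3 shares kept were 60.0% from untreated to RANKL, 42.5% from untreated to I-BET, 44.1% from RANKL to both agents and 52.2% from I-BET to both agents, and 0% of BRD2 genes with both agents had BRD3. At equal list length the BRD2 genes numbered 4, 4 and 2 (untreated, RANKL, I-BET), in 4, 4 and 2 regions, and the BRD3 genes with RANKL 39, in 37 regions. There the shares kept were 0% for BRD2 from untreated to RANKL, 60.0% for BRD3 from untreated to RANKL and 74.4% for BRD3 from I-BET to both agents, and 0% of BRD2 genes with both agents had BRD3. With the region over the promoter itself, 72.7% of Zfp genes with the NRF1 letters had BRD3 and 15.9% of those without. No paired analysis was possible because each antibody and treatment has 1 library. Counts of up to 28 genes for BRD2 set wide intervals, and a gene missing from a shorter list may lie just under its threshold, which the lists do not show.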

Other observations

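When a region within 1 kb of any listed start was counted in place of the gene ends, 98 Zfp genes had a region in some list. Of these, 58 had BRD3 in untreated cells and 30 had BRD2 under RANKL. Only the 331 Zfp genes with a promoter entry can be counted by listed start, and the share of all genes by that count is not given here. These counts are therefore a description and not a result about the Zfp genes. Of 10 corepressor partners among the Zfp genes, 7 were in no list (all genes 78.8%), and Zfp644, a partner of histone methyltransferases G9a and GLP, was in all 4 BRD3 lists and in the BRD2 list with RANKL. Of 16 Zscan genes, which carry a SCAN dimerisation domain, Zscan12 and Zscan29 had BRD3 (all genes with BRD3 in some list 17.4%). Both were in the lists with I-BET and with both agents, and Zscan29 was also in that with RANKL. In untreated cells the BRD3 regions of the 40 Zfp genes that stayed in the I-BET list had a median width of 595 bp, and those of the 26 that did not had 742.5 bp, beside 681.5 and 728 bp over all genes.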
